A study of Mus musculus with 6 samples.

Results

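Small nucleolar RNAs (snoRNAs) of the box H/ACA class pair with ribosomal RNA and direct the conversion of chosen uridines to pseudouridine, together with a small set of core proteins that includes the pseudouridine synthase dyskerin. In mammals most of them have no promoter of their own: they sit in introns of other genes and are trimmed from the spliced intron, so that each is transcribed with its host. Many hosts encode proteins of the translation machinery. The 8 snoRNAs described here lie within genes of the large ribosomal subunit: Snora3 in Rpl27a, Snora7a in Rpl32, Snora21 in Rpl23, Snora52 in Rplp2, Snora65 in Rpl12, Snora69 in Rpl39, Snora70 in Rpl10, and Snora68.

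They were picked by symbol, by matching the RefSeq accession of each probe, without its version, to the annotation of the mouse assembly GRCm38.p6. All 8 were found among the 72 probes of a custom NanoString nCounter panel for H/ACA snoRNAs, and all 8 belonged to the 67 probes with values. No filter on low values was needed to keep any of them. The accession version on the panel was that of the annotation for 7 of the 8, and differed for Snora65. The span of each host gene named above contains its snoRNA in the annotation.

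The RNA came from C2C12, an immortalised mouse myoblast line that leaves the cell cycle and forms multinucleated myotubes by fusion when differentiated. Whole-cell RNA was taken from 3 samples labelled as control, undifferentiated cells, called myoblasts below, and from 3 samples of the same line labelled as differentiated, for 7 days according to the protocol, called myotubes. No genetic change or drug separates the states in the labels, and the cell type field reads myoblasts for all 6 samples. The panel holds no protein-coding marker of myoblasts or myotubes, so the degree of fusion could not be checked. The labels do not say whether samples of a state came from separate cultures, and p-values measure only the spread between these samples, which may be technical. In RNA from whole cultures, fewer cells of a type and less RNA per cell cannot be told apart.

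Levels are called normalized counts. As inferred from the values, each is the count of hybridised colour-coded probes multiplied by a factor for each sample. Behind the 8 snoRNAs stood between 1517 and 70253 implied counts per probe and sample. If these hold, counting error was at most 0.04 on the log2 scale. The samples were unevenly spaced over the whole panel. The SD over probes of the log2 difference was 0.08 between myotube samples 1 and 2, but 0.35 and 0.37 between these and myotube sample 3. Among myoblasts it was 0.21 between samples 2 and 3, and 0.49 and 0.36 between these and sample 1. Changes and spreads that rest on myoblast sample 1 or myotube sample 3 are therefore given with and without them.

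A sequence feature that the choice of members did not use directly is the start of the host gene. Messenger RNAs of ribosomal proteins are known for an oligopyrimidine tract at their 5′ end, so a choice by such hosts favours it. RefSeq promoter sequences of 6 hosts, on GRCm38.p6, were searched for CTTTT or CTTTC within 50 bases on either side of the annotated start. These letters were chosen after the sequences had been looked at. The shares below therefore only describe these hosts and cannot test for enrichment. A match on the transcribed strand was present for 5 of the 6 hosts, against 21.8% of all 32851 promoters in the table. On the opposite strand none of the 6 held a match, against 21.1% of all. The 30 bases around the match nearest the start are shown on the transcribed strand, 5′ to 3′, with matches in capitals, because the hosts of the snoRNA that fell, of 2 that rose and of 2 that did not pass the test are all among them.
Rpl27a (host of Snora3), chr7:109519186-109519215, plus strand: gtgagctcctccCTTTTccCTTTCtgccac
Rpl10 (host of Snora70), chrX:74270836-74270865, plus strand: cgtgagcaggcgtgggagcgtctCTTTTcc
Rplp2 (host of Snora52), chr7:141447639-141447668, plus strand: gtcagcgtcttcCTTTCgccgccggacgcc
Rpl39 (host of Snora69), chrX:37085173-37085202, minus strand: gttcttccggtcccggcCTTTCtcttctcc
Rpl12 (host of Snora65), chr2:32961702-32961731, plus strand: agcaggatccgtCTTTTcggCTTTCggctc
In Rpl27a, Rplp2 and Rpl12 the first capital lies 4, 1 and 3 bases into the annotated transcript, counting its first base as 1. In Rpl39 and Rpl10 it lies at bases 38 and 44. Rpl23, the host of Snora21, had no such letters in its window.

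Differentiated cells were compared with undifferentiated ones to ask which of these snoRNAs change as myoblasts become myotubes. Snora3, Snora68, Snora70 and Snora7a rose, by between 1.52-fold and 1.92-fold, and Snora52 fell 1.6-fold. Snora69, Snora21 and Snora65 did not pass the test, with log2 changes of 0.39, 0.27 and -0.58. The test was limma on log2(normalized count + 1), two-sided, with Benjamini-Hochberg adjustment over all 67 measured probes and a threshold of 0.05. Changes are myotubes minus myoblasts.

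The panel as a whole gives the background for these counts. Of the 8 snoRNAs 5 passed the test, or 62.5%, where 55.2% of all probes passed. Of the 8 snoRNAs 4 rose, which is 50%, where 35.8% of all probes rose. The single fall is 12.5%, where 19.4% of all probes fell. Values of the states did not overlap for 6 of the 8, or 75%, against 65.7% of all probes. The median log2 change of the 8 was 0.50, beside 0.14 over the panel. It was 0.29 under quantile normalization, beside 0.03, and 0.32 with equal panel totals, beside -0.04. On the deposited scale their median absolute log2 change was 0.64, beside 0.57. Rises and a fall thus both occurred within the class.

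**Figure D1:**
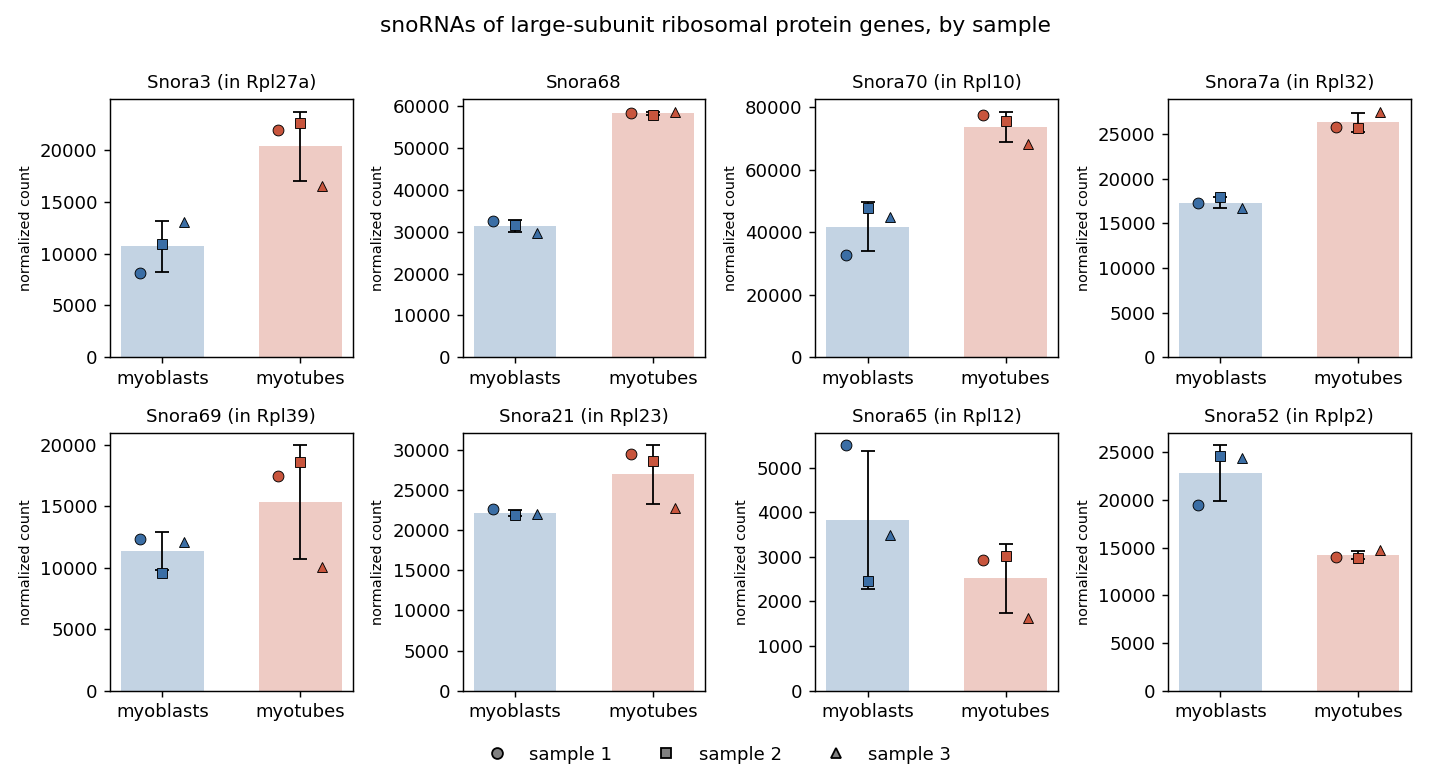
Normalized counts (linear axis from 0) of the 8 snoRNAs in each of 3 myoblast samples (blue) and 3 myotube samples (red); bars are means, error bars SD, and the marker shape gives the sample number. The states are separate for Snora3, Snora68, Snora70, Snora7a and Snora52, nearly touch for Snora21, and overlap for Snora69 and Snora65, whose lowest myotube value is sample 3.

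Snora68 had the smallest spread of the rising guides in myotubes. The human counterpart, U68, directs pseudouridylation of 28S rRNA, the main RNA of the large subunit. Snora68 stood at 32578, 31621 and 29794 normalized counts in myoblast samples 1 to 3 and at 58314, 57968 and 58745 in myotube samples 1 to 3. All 3 myotube samples lay above all 3 myoblast samples, the lowest of them 1.78 times the highest myoblast value. The means were 31331 ± 1414 and 58342 ± 390 (SD, n = 3 each). This gave a log2 change of 0.90 ± 0.10 SE, a rise of 1.86-fold with a 95% interval of 1.57 to 2.21 (limma, adjusted p = 0.000389). Under quantile normalization it was 0.52 (adjusted p = 0.0205).

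Snora7a, also known from its human counterpart as a 28S rRNA guide, lies in Rpl32 and was similarly even within each state. Its level was 17288, 17926 and 16759 normalized counts in myoblast samples 1 to 3, against 25767, 25670 and 27538 in myotubes. The highest and lowest sample of a state differed by 1.07-fold in both states, and the states did not overlap. Snora7a rose by 0.60 ± 0.11 SE on the log2 scale, or 1.52-fold (limma, adjusted p = 0.00213), and by 0.37 under quantile normalization (adjusted p = 0.0388). Myotube sample 3, which was low for several other members, was here 0.10 above the mean of myotube samples 1 and 2 on the log2 scale.

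Snora70 is a guide of the small subunit: its human counterpart U70 directs a pseudouridine of 18S rRNA, although the host Rpl10 encodes a large-subunit protein that joins the ribosome late in assembly. It was measured at 32751, 47631 and 44803 normalized counts in myoblasts and at 77312, 75638 and 68275 in myotubes. Myoblast sample 1 was the low one of its state, at 0.50 below the mean of the other 2 on the log2 scale, and all myotube samples were higher than any myoblast sample. Snora70 rose 1.79-fold, a log2 change of 0.84 ± 0.16 SE (limma, adjusted p = 0.00373). Without myoblast sample 1 it was 0.67 (adjusted p = 0.00265). Quantile normalization reduced it to 0.33 (adjusted p = 0.0458).

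Snora3, in Rpl27a, had a larger fitted change than the other 7 on the deposited scale with all samples, but a smaller one than Snora52 under quantile normalization (0.75 against -0.92) and with equal panel totals (0.77 against -0.85). Its values were 8085, 10932 and 13025 normalized counts in myoblasts and 21961, 22576 and 16468 in myotubes. Both states were spread, by 1.61-fold between the lowest and highest myoblast sample and by 1.37-fold among myotubes, yet they did not overlap. The rise of 0.94 ± 0.21 SE on the log2 scale was 1.92-fold, with a 95% interval from 1.37-fold to 2.7-fold (limma, adjusted p = 0.00675). Without myotube sample 3 it was 1.09 (adjusted p = 0.00569), and without myoblast sample 1 it was 0.75 (adjusted p = 0.0217).

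Snora52 was the one of the 8 that fell. It lies in Rplp2, which encodes an acidic protein of the ribosomal stalk, and its human counterpart is a 28S rRNA guide. Values were 19464, 24679 and 24410 normalized counts in myoblasts against 14044, 13963 and 14733 in myotubes. The lowest myoblast sample was 1.32 times the highest myotube sample. Its log2 change was -0.67 ± 0.13 SE (limma, adjusted p = 0.00372). Leaving out myoblast sample 1, the low one of its state, gave -0.79 (adjusted p = 0.00067).

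The remaining 3 did not pass the test. Snora21, in Rpl23 and known as a 28S rRNA guide in human, was nearly constant in myoblasts, at 22591, 21929 and 21990 normalized counts. In myotubes it read 29468, 28610 and 22751. Myotube samples 1 and 2 were the higher ones, and sample 3 lay 1.01 times above the highest myoblast sample, so the states did not overlap by a narrow margin. The log2 change was 0.27 ± 0.13 SE (limma, adjusted p = 0.119), with a 95% interval from 0.97-fold to 1.5-fold. Without myotube sample 3 it was 0.39 and passed (adjusted p = 0.014), whereas it was 0.12 under quantile normalization (adjusted p = 0.238) and 0.10 with equal panel totals (adjusted p = 0.482).

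Snora69, in Rpl39, is the counterpart of human U69, which guides a pseudouridine of 5.8S rRNA. Its myoblast values were 12344, 9572 and 12128 normalized counts, and its myotube values were 17440, 18559 and 10030. Myotube samples 1 and 2 exceeded every myoblast sample, whereas myotube sample 3 fell among the myoblasts. The log2 change was 0.39 ± 0.25 SE (limma, adjusted p = 0.205), and the 95% interval from 0.88-fold to 1.97-fold includes no change. Without myotube sample 3 the change was 0.67 (adjusted p = 0.00866). It was smaller with equal panel totals, at 0.22 (adjusted p = 0.458), with quantile normalization, at 0.26 (adjusted p = 0.271), and when myotube sample 2 was left out, at 0.23 (adjusted p = 0.473).

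Snora65 lies in Rpl12, which encodes a protein at the base of the ribosomal stalk, and had the fewest counts and the widest spread of the 8. Its human counterpart, U65, is a 28S rRNA guide. It was read at 5509, 2456 and 3498 normalized counts in myoblasts and at 2920, 3012 and 1622 in myotubes. Myoblast samples differed by 2.24-fold and myotube samples by 1.86-fold, and the states overlapped. A log2 change of -0.58 ± 0.35 SE was fitted (limma, adjusted p = 0.188), with a 95% interval from 0.38-fold to 1.18-fold. The direction rests on myoblast sample 1 and myotube sample 3. Without the former the change was -0.27 (adjusted p = 0.548), without the latter -0.29 (adjusted p = 0.499), and without both, a fit chosen after seeing the data, 0.02 (adjusted p = 0.947). With sample medians subtracted Snora65 passed as a fall, at -0.63 (limma, adjusted p = 0.0041).

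**Figure D2:**
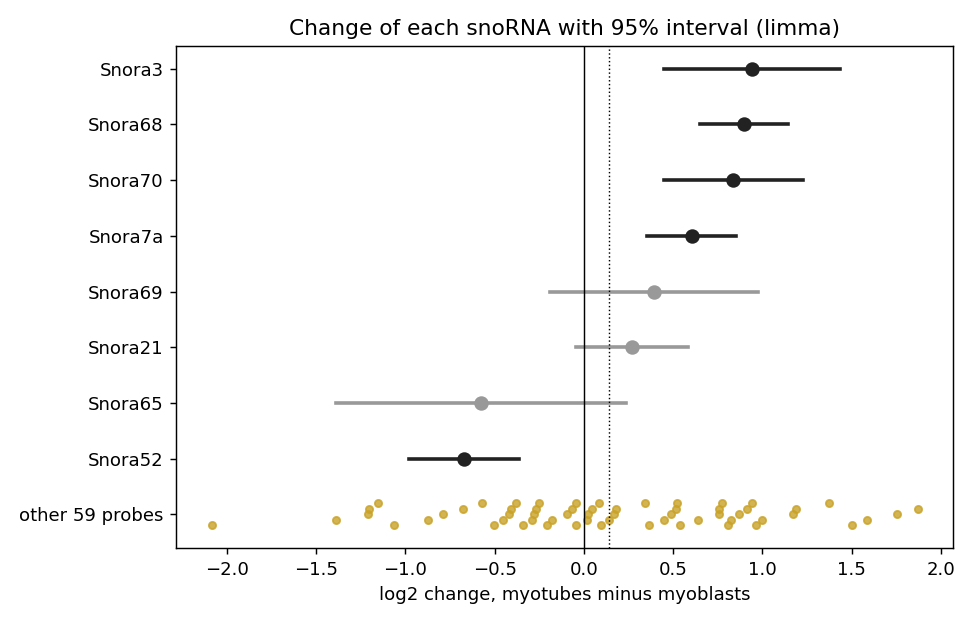
Log2 change, myotubes minus myoblasts, of the 8 snoRNAs with 95% intervals from limma (black where adjusted p is at or below 0.05, grey otherwise), above the changes of the other 59 probes as points; the dotted line marks the panel median of 0.14. Intervals of Snora3, Snora68, Snora70 and Snora7a lie above 0 and that of Snora52 below it, while Snora65 has the widest interval of the 8.

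With the pair of samples that stood apart both left out, in a fit also chosen after seeing the data, 6 of the 8 rose and 1 fell. Of the 67 probes, 32 rose and 17 fell in this fit, and 73.1% passed. The additions among the 8 were Snora69, at a log2 change of 0.74 (limma, adjusted p = 0.00975), and Snora21, at 0.40 (adjusted p = 0.00217). The 5 calls made with all samples were kept.

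Spread within a state was then compared between the 8 snoRNAs. The median SD of log2 levels over the 3 samples was 0.20 for the 8 in myoblasts and 0.15 in myotubes, against 0.20 and 0.15 over all probes. Around this median the members ranged widely. In myoblasts the SD ran from 0.02 for Snora21 and 0.05 for Snora7a to 0.35 for Snora3 and 0.58 for Snora65. In myotubes it ran from 0.01 for Snora68 to 0.49 for Snora69 and 0.50 for Snora65. Snora65 had the second largest SD of the 67 probes in myoblasts (rank 2) and rank 4 in myotubes, where Snora69 had rank 5. Snora21 moved from rank 66 in myoblasts, among the steadiest, to rank 25 in myotubes.

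Much of the spread in myotubes came from sample 3. The log2 distance of myotube sample 3 from the mean of the other 2 was -0.87 for Snora65, -0.84 for Snora69, -0.44 for Snora3, -0.35 for Snora21 and -0.16 for Snora70. For Snora52, Snora7a and Snora68 it was 0.07, 0.10 and 0.01. Sample 3 was thus the lowest myotube sample for 5 of the 8, and it was below the mean of the other 2 for 58.2% of all probes. Without this sample the median SD of the 8 in myotubes was 0.03. It then covers only samples 1 and 2, which lay close together over the whole panel (SD of the log2 difference 0.08).

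Myoblast sample 1 did not shift the 8 in one direction. It lay below the mean of the other 2 for 4 of the 8, and for 64.2% of all probes. It lay 0.91 above the mean of the other myoblast samples for Snora65 and 0.20 above for Snora69 on the log2 scale. It lay 0.56 below for Snora3, 0.50 below for Snora70 and 0.33 below for Snora52. Snora68, Snora7a and Snora21 differed there by less than 0.09 in either direction. Without myoblast sample 1 the median SD of the 8 in myoblasts was 0.07. It then covers only samples 2 and 3, the closest myoblast pair over the whole panel (SD of the log2 difference 0.21). RNA quality and culture day of the samples are not given in the labels, and their part in these distances was not tested.

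**Figure D3:**
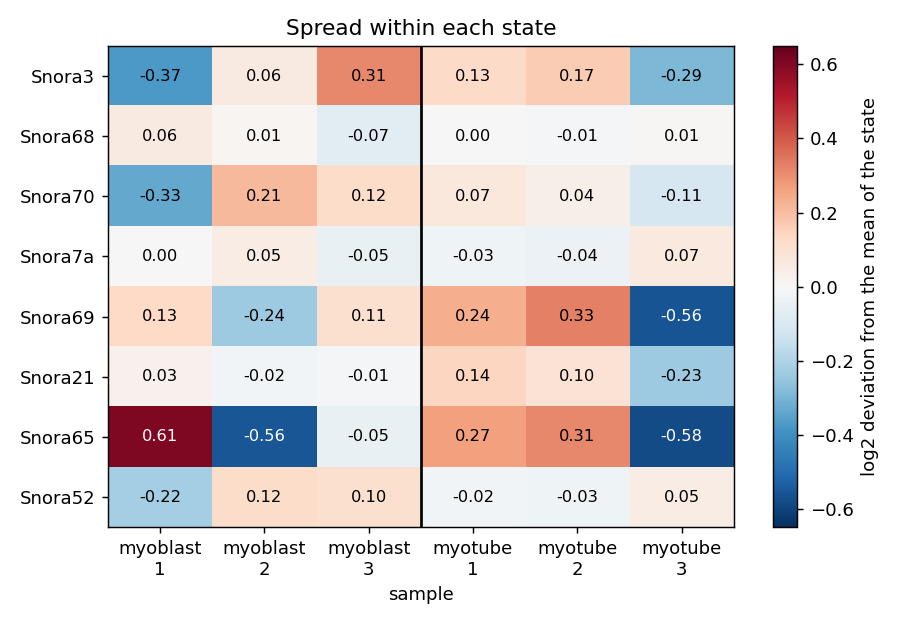
Log2 deviation of each sample from the mean of its own state for the 8 snoRNAs (red above, blue below; the line divides myoblasts from myotubes). Myotube sample 3 is blue for Snora3, Snora70, Snora69, Snora21 and Snora65, while myoblast sample 1 is red for Snora65 and blue for Snora3, Snora70 and Snora52; Snora68 and Snora7a stay near 0 throughout.

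Whether members kept a fixed proportion to each other was examined through the log2 ratio of each of the 28 pairs. The ratios of the states did not overlap for 18 pairs, or 64.3%, against 68.4% of the 2211 pairs that the panel allows. With 3 samples against 3 the exact two-sided permutation test cannot go below p = 0.1. All 18 pairs reached that value, and none passed after adjustment over the 28 pairs (smallest adjusted p = 0.156).

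The 4 snoRNAs that rose were grouped by their change, so the ratios between them could change little. For 5 of their 6 pairs the ratios overlapped between states, and the change of the ratio was between 0.04 and 0.34 on the log2 scale. Snora68 to Snora70 changed by 0.06 ± 0.20 (SE) and Snora3 to Snora68 by 0.04 ± 0.28 (SE). The exception was Snora68 to Snora7a, the pair with the smallest spread. Its log2 ratio went from 0.85 ± 0.05 to 1.15 ± 0.05 (SD, n = 3 each), a difference of 0.29 ± 0.04 SE (exact permutation p = 0.1). The like ratios of these 4 are thus a description only, and overlap in the other pairs can reflect their wider spread.

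The ratio of Snora70 to Snora52 went from 0.86 ± 0.10 to 2.37 ± 0.14 and that of Snora3 to Snora52 from -1.12 ± 0.19 to 0.50 ± 0.29 (SD, n = 3 each, log2). With all samples that of Snora3 to Snora65 moved by a similar amount, from 1.53 ± 0.86 to 3.05 ± 0.25. Each had an exact permutation p of 0.1. The ratio of Snora65 to Snora52 differed by 0.10 ± 0.54 SE (exact permutation p = 0.9). Both of these ratios with Snora65 rest on myoblast sample 1 and myotube sample 3. Without these samples, in a fit chosen after seeing the data, log2 changes were 0.90 for Snora3, -0.81 for Snora52 and 0.02 for Snora65. Snora3 then moved less against Snora65 than against Snora52, and Snora65 and Snora52 no longer changed alike. The ratio of Snora69 to Snora65 was steady in myotubes, at 2.61 ± 0.03, although each varied widely there, and stood at 1.64 ± 0.42 in myoblasts (SD, n = 3 each). The steadiness rests on myotube sample 3, which was low by like amounts for both (-0.84 and -0.87), as samples 1 and 2 nearly coincide. This pair was picked out after its values were seen.

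Summed, the 8 snoRNAs took a larger part of the panel in myotubes. Their normalized counts added up to 161254 ± 9220 in myoblasts. In myotubes the sum was 237795 ± 15282 (SD, n = 3 each), which is 1.47 times as high. As a share of the panel's summed count myoblasts gave 10.5 ± 0.03% and myotubes 13.7 ± 0.62% (SD, n = 3 each). Every myoblast sample rounded to 10.5%, and the myotube samples stood at 14.1%, 14.0% and 13.0%. In myoblast sample 1 both the sum of the 8, at 150609 against 166745 and 166407, and the sum of the panel were lower than in the other myoblast samples.

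Snora70 and Snora68, the members with the highest counts, carried most of the gain. Together they went from 4.75 ± 0.23% of the panel to 7.62 ± 0.12% (SD, n = 3 each). The other 6 held 5.94%, 5.52% and 5.78% in myoblast samples 1 to 3. In myotubes they held 6.37% and 6.42% in samples 1 and 2, above all myoblast samples, and 5.50% in sample 3, below all of them. Within the sum of the 8, Snora52 went from 14.1 ± 1.05% to 6.02 ± 0.59%, and Snora70 from 25.7 ± 3.56% to 31.0 ± 0.26% (SD, n = 3 each). A share of a sum is weighted by how brightly each probe reads.

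**Figure D4:**
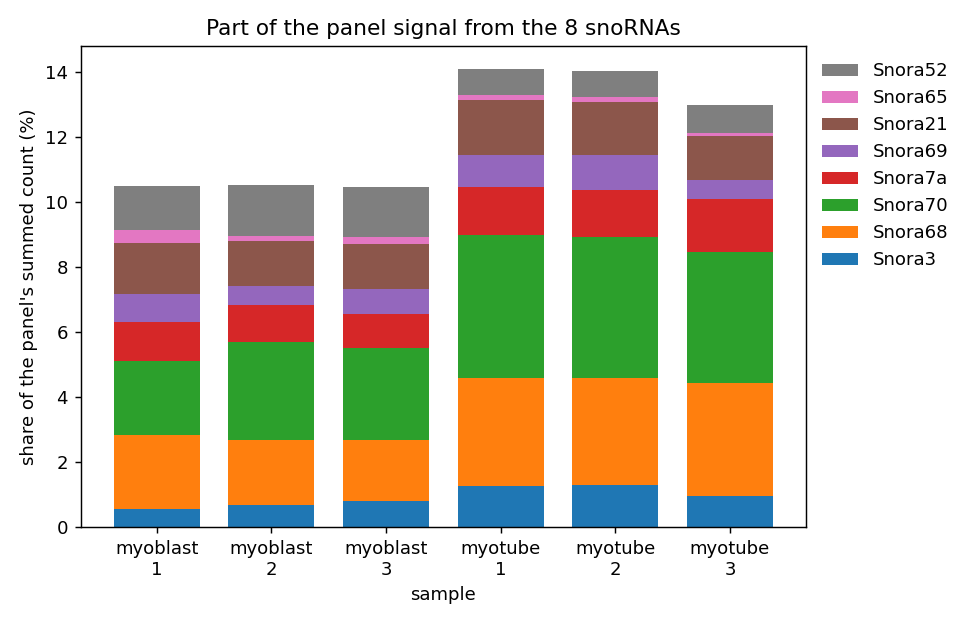
Share of the panel's summed normalized count (percent, stacked from 0) taken by each of the 8 snoRNAs in the 6 samples. The stacks reach 10.5% in each myoblast sample and 13.0% to 14.1% in the myotube samples, with Snora70 and Snora68 as the widest bands in myotubes and a narrower band for Snora52.

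For each of the 8, the named snoRNA of the panel that followed it most closely was sought, by the smallest SD over the 6 samples of the log2 ratio, among 32 candidates each. In no case was the closest another member. The members are 8 of the 33 named snoRNAs with values, so most candidates were not members. Snora3 and Snora70 both followed Snora74a, of the non-coding host gene Snhg4, with an SD of 0.11 and 0.10. Snora68 and Snora7a both followed Snora5c, in Tbrg4, with 0.11 and 0.12. Snora52 followed Snora43, in the non-coding host gene Snhg7, with an SD of 0.09, and their log2 ratio was 1.87 in both states.

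The 3 that did not pass had partners as well. Snora69 followed Snora41, in the translation elongation factor gene Eef1b2 (SD 0.11), and Snora65 followed Snora81, in the initiation factor gene Eif4a2 (SD 0.16). For Snora21 the closest was Snora23, in the importin gene Ipo7, at an SD of 0.18 and with very few counts for Snora23. The median SD over all candidates was between 0.37 and 0.71. These values describe the same 6 samples from which the changes come and carry no test. The search was not repeated without myoblast sample 1 and myotube sample 3. Snora65 deviated most from its state means in these samples, and Snora69 in myotube sample 3, so their partners may rest on them.

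Genes of the small ribosomal subunit host further H/ACA snoRNAs, and 4 of them were measured under a symbol: Snora62 in Rpsa, Snora33 in Rps12, and Snora64 and Snora78 in Rps2. Snora78 also lies within the non-coding gene Snhg9. None passed the test in limma (adjusted p from 0.0809 to 0.604), where 55.2% of all probes passed. None had an unadjusted p under 0.05, although Snora33 was close to it (limma, unadjusted p = 0.0531). Values of the states did not overlap for 1 of the 4, Snora33, where they did not for 65.7% of all probes. Their median log2 change was -0.27 on the deposited scale, beside 0.14 over the panel. The extremes were Snora33 at -0.38 ± 0.16 SE and Snora78 at 0.08 ± 0.14 SE. The difference between the 2 sets of hosts was not tested.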

How the data were processed

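RNA of 6 C2C12 samples, 3 per state, was read on a custom nCounter panel. The deposited table holds a signal, a probe count multiplied by 1 factor per sample. This was inferred from the values: all 67 values of each sample were whole multiples of a step between 1.01 and 1.31, within 0.05 of a count. The basis of the factor and any background step are not given in the sources used here, and no control probe was available to check it. Implied totals ran from 1097844 to 1627062 counts per sample. If the implied counts hold, myotube samples 1 and 2 differed beyond counting error (chi-square 882 on 66 degrees of freedom), which repeat hybridisations of 1 RNA could also do. They were kept as separate samples because the labels number them so.

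Values were analysed as log2(value + 1), so folds are on that scale, with limma 3.58.1 in R 4.3.3 (lmFit, eBayes), tested beforehand on simulated data. Ratios, spreads and shares were computed with Python 3.11.15, numpy 2.4.6 and pandas 2.3.3, and figures with matplotlib 3.10.9. Names and host genes come from RefSeq annotation of GRCm38.p6, and 1 host gene is not reported here. The panel's own build is not given, so snoRNA coordinates are not printed. Near-identical copies of a snoRNA could share a probe, which was not checked.

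The 8 members, the small-subunit list and the tests were chosen with earlier results of these data known. The text names all 8, the closest named snoRNA of each, and the widest rise and fall of the small-subunit list. Roles of human counterparts are background knowledge. Alternatives were other scalings, pseudocounts of 10 and 0.1, leaving out probes with a mean under 100, a replicate block, a robust trend fit and leaving out samples. Correlations of deviations from state means between samples with the same number were 0.44, -0.74 and -0.02, so replicate numbers were not taken as pairs.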

Additional observations from a re-analysis of the deposited data

How the results depend on the processing

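The calls of Snora3, Snora68, Snora70, Snora7a and Snora52 kept their direction and passed the threshold under all 16 alternatives, with limma's adjusted p at most 0.0458. The count of rises was 4 to 6 and that of falls 1 when single samples were left out. In these fits 19 to 29 of the 67 probes rose and 9 to 17 fell. The 6 rises came without myotube sample 3, where 29 of the 67 probes rose. With sample medians subtracted and with the replicate block the count of falls was 2, because Snora65 passed (log2 change -0.63, adjusted p = 0.0041, and -0.58, adjusted p = 0.0243), while the rises stayed at 4. Of the 67 probes, 16 fell with sample medians subtracted and 13 with the block, against 13 in the main fit. The block changed no other call among the 8, and the replicate numbers are not shown to pair the samples. Snora65 turned to 0.017 with myoblast sample 1 and myotube sample 3 both left out. The median log2 change of the 8 was 0.29 under quantile normalization and 0.32 with equal panel totals. These scalings moved the median of all probes by -0.11 and -0.18; the cause of the smaller median was not tested. The median ran from 0.43 to 0.62 when single samples were left out. Leaving out samples gave a median SD of the 8 between 0.0656 and 0.251 (myoblasts) and between 0.0253 and 0.195 (myotubes). The pairs without overlap then numbered 18 to 21 of 28. Dropping a sample can only keep or add such pairs. Their share over all pairs of the panel was computed only with all samples (68.4%), so these counts lack a background. Averaging myotube samples 1 and 2 changed no call among the 8. Count models on the implied counts were listed but not run, since the table holds too few low values to establish whole counts by the criterion used. Counting error was at most 0.04 on the log2 scale for any of the 8, if the implied counts hold.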
